A study of Homo sapiens with 12 samples.

Results

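Open chromatin was examined at 7 genes that hormone receptors and FOXA factors control together in breast and prostate cells. The cells were not breast or prostate cells but U2OS, a human osteosarcoma line that was made to express FOXA2 or SOX2 constructs. The genes were ESR1, GREB1, TFF1, XBP1, GATA3, KLK3 and TMPRSS2. A site belonged to them when it overlapped the gene body or the 50 kb on either side of it, which gave 156 of the 311447 sites found anywhere on chromosomes 1 to 22 and X. A site is a stretch of merged overlapping peaks from 9 deposited peak lists, and a list calls a site when 1 of its peaks shares at least 1 base with it.

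FOXA proteins are forkhead transcription factors that can bind their motif in compacted chromatin, and in luminal breast and prostate cells FOXA1 opens the enhancers at which hormone receptors then bind. FOXA2 shares the forkhead domain of FOXA1 and is best known from endoderm and liver. ESR1 encodes oestrogen receptor alpha, GREB1 and TFF1 are classic oestrogen-induced genes, KLK3 (which encodes prostate-specific antigen) and TMPRSS2 are androgen-induced genes, and GATA3 and XBP1 encode transcription factors of luminal breast cells. XBP1 also works in most cell types as a regulator of the unfolded protein response.

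Chromatin was profiled by ATAC-seq, in which a transposase inserts sequencing adapters into accessible DNA, in 12 samples of 6 groups with 2 biological replicates each. In the FOXA2 set, U2OS cells labelled wild type were set against cells carrying Tet-on FOXA2 (full length) and Tet-on FOXA2dCTD, FOXA2 without its CTD. In the SOX2 set, a second wild type whose label names the SOX2 cell line was set against Tet-on SOX2 and Tet-on SOX2FOXA2CTD, a fusion of SOX2 with the FOXA2 CTD. The 4 construct groups received 500 ng/ml doxycycline, which switches a Tet-on transgene on, for 4 days. The wild-type samples have no genotype or treatment entry, although the treatment protocol given with them names doxycycline too, and no label names a hormone. The constructs were Flag-tagged, and nothing in the labels says whether a line was 1 clone. Each sample of the FOXA2 set has its own MACS2 peak list. Each group of the SOX2 set has 1 list with IDR values, a score of how reproducible a peak is. That list is taken here to compare the 2 replicates of the group, though the labels do not state its inputs. No sample of the SOX2 set thus has a list of its own. Entries of the SOX2 set at a global IDR of at most 0.05 counted as called.

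The lists differed in length and in the weakest peak they kept, and this bears on every count below. The 2 wild-type lists of the FOXA2 set held 19862 and 25088 peaks, the full-length lists 161136 and 57946, the CTD-deletion lists 78820 and 146854, and the lists of the SOX2 set 48142 (wild type), 65628 (SOX2) and 75544 (fusion). The lowest −log10 p in a list was 5.43 for wild type 2 and 5.22 for full length 2, against 3.44 for wild type 1 and 2.01 for the other lists of that set. A strength is therefore given as a percentile within its own list, the percent of that list's peaks with an equal or lower −log10 p, where 100 is the strongest. A percentile places a site within 1 list, and percentiles from lists of different length and floor do not show a change between them. Both lists labelled wild type in the FOXA2 set had a peak in the FOXA2 gene itself, at percentiles 67.2 and 98.1, beside 99.6 and 99.9 with the full-length construct and 98.9 and 99.8 with the CTD deletion. Wild type is therefore used here as the label gives it, and whether that peak comes from the cells' own FOXA2 locus or from a construct was not tested. In the SOX2 set that peak stood at 51.4 in the wild type, 44.5 with SOX2 and 16.8 with the fusion. These lists hold no read counts, so the depth behind a call is unknown.

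The promoter sequences of 4 starts are shown first because the lists split on them. RefSeq promoter sequences of GRCh38.p14 matched 4 of the 7 genes with 15 starts. Each sequence below is the 250 bases before a start, 5′ to 3′ on the gene's strand, with matches to the searched motifs in capitals. Over the 300 bases from 250 before to 50 after the start, a peak was present at XBP1 in all 9 lists, at GATA3 in 5, at this ESR1 start in 1 and at KLK3 in none.
XBP1 chr22:28800570-28800819 (minus strand): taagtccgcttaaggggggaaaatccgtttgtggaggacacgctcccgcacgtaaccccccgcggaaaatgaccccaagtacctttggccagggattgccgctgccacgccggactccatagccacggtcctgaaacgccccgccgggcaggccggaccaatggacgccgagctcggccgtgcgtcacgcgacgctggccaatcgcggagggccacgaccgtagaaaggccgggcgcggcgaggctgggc
GATA3 chr10:8045083-8045332 (plus strand): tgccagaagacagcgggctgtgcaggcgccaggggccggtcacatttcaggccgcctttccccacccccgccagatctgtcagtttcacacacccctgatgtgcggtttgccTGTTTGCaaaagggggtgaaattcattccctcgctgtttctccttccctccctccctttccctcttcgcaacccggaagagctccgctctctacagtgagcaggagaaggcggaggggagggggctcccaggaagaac
ESR1 chr6:151690277-151690526 (plus strand): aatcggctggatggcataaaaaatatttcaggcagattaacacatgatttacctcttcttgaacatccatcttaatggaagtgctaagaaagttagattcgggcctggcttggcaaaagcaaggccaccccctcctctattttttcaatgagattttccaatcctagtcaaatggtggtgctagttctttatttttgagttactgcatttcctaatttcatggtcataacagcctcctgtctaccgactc
KLK3 chr19:50854665-50854914 (plus strand): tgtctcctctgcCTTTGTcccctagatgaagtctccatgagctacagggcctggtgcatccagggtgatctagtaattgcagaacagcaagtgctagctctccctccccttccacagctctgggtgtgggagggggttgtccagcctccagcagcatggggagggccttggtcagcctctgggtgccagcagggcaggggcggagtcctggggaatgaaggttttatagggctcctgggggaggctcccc
In the same 300 bases XBP1 had 68.7% G and C with 40 CpG pairs and GATA3 60.7% with 16, while the ESR1 start had 41% with 4 and KLK3 61% with 2. Among all 34961 RefSeq promoters the medians were 58.7% and 14 CpG, and they were 64.3% and 25 CpG for promoters called in all 9 lists against 49.7% and 4 for those called in none. At these 4 starts XBP1 and GATA3 had more CpG pairs than the median of all promoters, and ESR1 and KLK3 fewer. Other starts did not follow this split: the ESR1 start at 151807682 had 17 CpG and the GATA3 starts at 8049854, 8051236, 8053641 and 8054688 had 18, 16, 36 and 29, and no list called any of them.

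The forkhead letters TGTTTAC and TGTTTGC were searched on both strands of the 15 promoters. GATA3 held the only match, TGTTTGC, from 138 to 132 bases before its start, a motif found in 3.88% of all promoters of the same length (3.42% for TGTTTAC). KLK3 held the SOX letters ACAAAG on the opposite strand from 238 to 233 bases before the start, as 16.1% of promoters do. The starts of ESR1 at 151807682 and of GATA3 at 8060457 held the same letters on one strand or the other, and the latter also held the SOX motif AACAATG (3.31% of promoters) and the AP-1 motif TGANTCA (7.68%). None of these 15 promoters, which do not cover GREB1, TFF1 or TMPRSS2, held the palindromic oestrogen response element (0.0572% of promoters) or the GATA motif AGATAA (10.3%). A match is a string of letters and not a binding site.

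Accessibility at the gene starts split the 7 genes. XBP1 had a peak within 1 kb of its start in all 9 lists. GATA3 had one in both full-length lists, both CTD-deletion lists, the wild type of the SOX2 set and the fusion list, and in neither wild type of the FOXA2 set nor with SOX2. ESR1 and GREB1 each had one in CTD deletion 2 alone, and TFF1, KLK3 and TMPRSS2 had none in any list. For comparison, 15812 protein-coding genes with RefSeq promoter sequences were each counted when any of their listed starts had such a peak. The share of genes was 38.5% and 36.7% in the wild types of the FOXA2 set and 66.2% and 58.1% with full-length FOXA2. It was 51.8% and 66.4% with the CTD deletion, and 57.6%, 60.1% and 55.1% in the wild type, SOX2 and fusion lists of the SOX2 set. Of the 7 members, 1 and 1, 2 and 2, 2 and 4, and 2, 1 and 2 had one in the same order. GREB1, TFF1 and TMPRSS2 have no such sequence, so they were read at 1 start each and are not among the 15812 genes.

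The distance from a start to the nearest peak was read for each gene. From the TMPRSS2 start it was 502 and 590 kb in the wild types of the FOXA2 set, 75.3 and 502 kb with full length, 519 and 17.1 kb with the CTD deletion, and 122, 87.3 and 171 kb in the wild type, SOX2 and fusion lists. The distance in CTD deletion 1 thus fell within the wild-type range, and that in full length 2 (501715 bp) just short of it (501755 bp). The shorter distances with the FOXA2 constructs were in the 2 longest lists. From TFF1 it was 130 kb in both wild types of the FOXA2 set, 29.6 and 56.6 kb with full length, 44.7 and 4.21 kb with the CTD deletion, and 83.2, 48.3 and 83.3 kb in the SOX2 set. KLK3 had its nearest peak 18.9 and 49.7 kb away in the wild types, 18.5 and 9.31 kb with full-length FOXA2, and 9.17 and 9.23 kb with the CTD deletion. GATA3, whose start was called in all 4 lists with a FOXA2 construct, had its nearest peaks 86 and 99.4 kb away in the wild types of that set. In the SOX2 set the wild type and the fusion had a peak at the start itself, and SOX2 had its nearest 77.7 kb away. Every FOXA2 construct list was longer than both wild-type lists of that set. Distances were not read over other genes, so whether the shorter ones are particular to these genes was not tested.

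**Figure D1:**
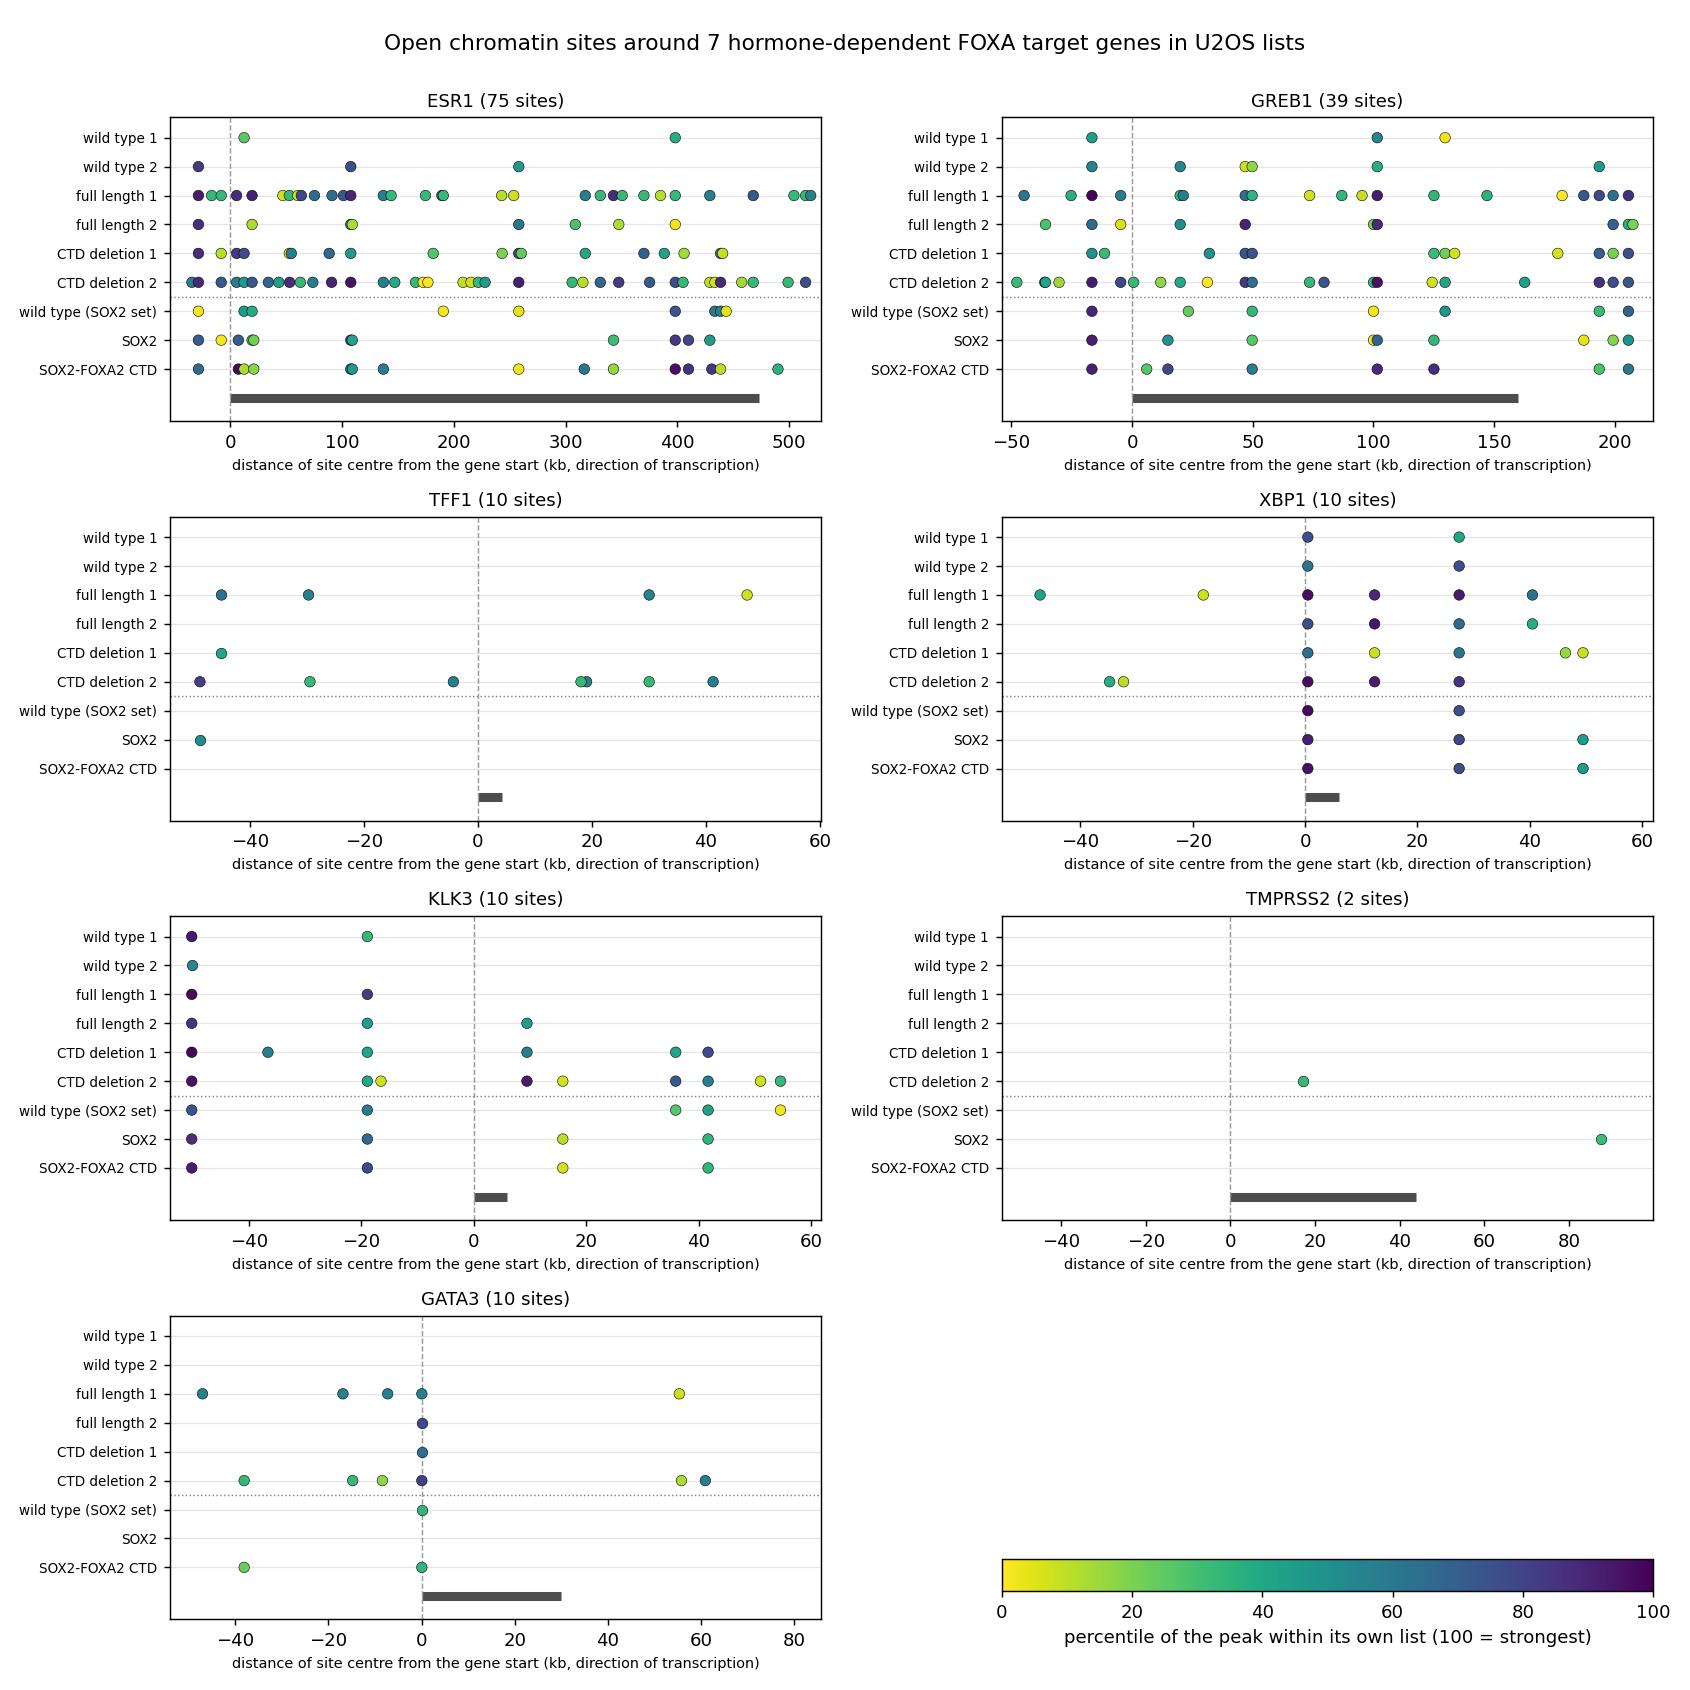
Map of the 156 sites, with 1 panel per gene, the distance of each site's centre from the gene start (kb, in the direction of transcription) on the x axis and the 9 lists in rows. Point colour is the percentile within the list, the grey bar is the gene body, and the column of points in all 9 rows at the XBP1 start contrasts with the TMPRSS2 panel, which holds 2 points.

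The windows together spanned 1423 kb and held 11 sites per 100 kb. ESR1 held 75, GREB1 39, TFF1, XBP1, KLK3 and GATA3 10 each, and TMPRSS2 2. Per 100 kb of window this was 15 for GREB1, 13.1 for ESR1, 9.59 for TFF1, 9.45 for KLK3, 9.43 for XBP1, 7.7 for GATA3 and 1.39 for TMPRSS2, where 19974 protein-coding genes had a median of 11.3 and quartiles of 8.34 and 13.7. GREB1 stood at the 85.4th percentile of those genes and TMPRSS2 at the 1.39th, with ESR1 at 68.9 and the other 4 between 21 and 34.1. Of the 156 sites, 91 lay in the body of the member gene, 32 upstream and 33 downstream.

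In peaks per 10000 of each list, which takes list length into account, the windows held 5.03 and 5.18 in the wild types of the FOXA2 set. They held 4.41 and 4.49 with full-length FOXA2 and 5.71 and 6.06 with the CTD deletion, so that the wild-type values lay between those of the constructs and the groups did not overlap. With an equal number of strongest peaks from each list of the set (19862), the values were 5.03 and 5.54, 4.53 and 4.03, and 3.52 and 5.54, and the CTD-deletion lists then overlapped both other groups. The SOX2 set gave 5.19 in the wild type, 4.42 with SOX2 and 4.24 with the fusion, and 5.19, 4.57 and 4.15 at equal numbers. With 2 lists against 2, the smallest p an exact two-sided permutation test can give is 0.333, and the SOX2 set has 1 list per group, so none of these differences was tested.

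**Figure D2:**
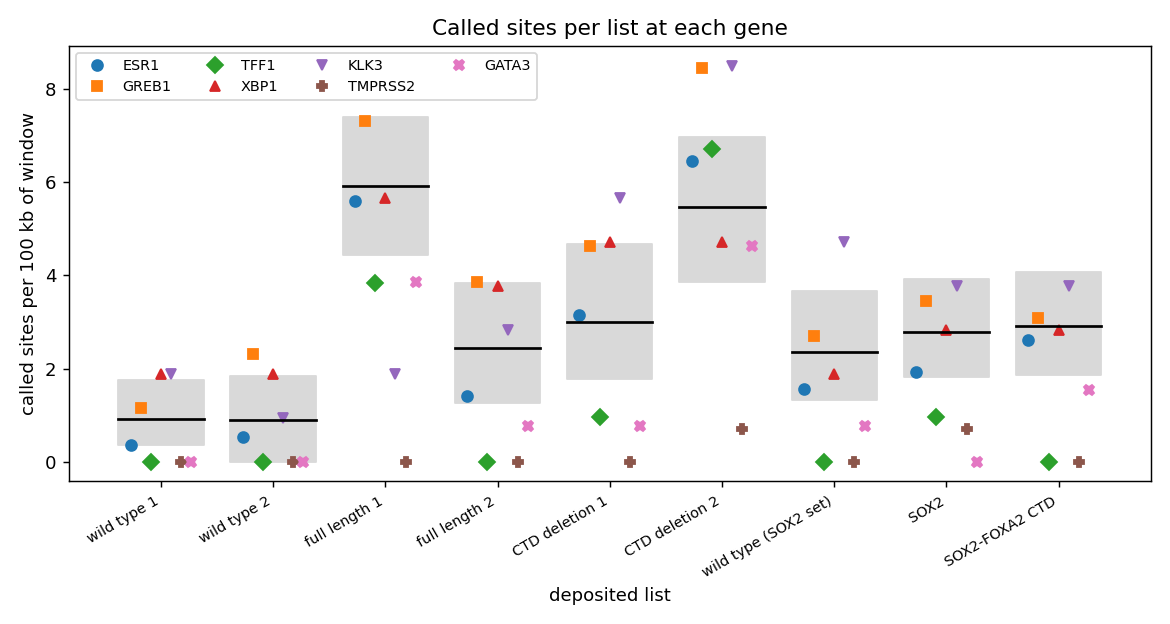
Called sites per 100 kb of window (y axis) in each of the 9 lists (x axis), with 1 marker per gene, over the interquartile range (grey box) and median (black line) of 19974 protein-coding genes. TMPRSS2 lies at 0 in 7 of the 9 lists, and KLK3 and GREB1 lie above the box in CTD deletion 2, at 8.5 and 8.46. KLK3 is above it also in wild type 1 (1.89), CTD deletion 1 (5.67) and the wild type of the SOX2 set (4.72). GREB1 is above it also in wild type 2 (2.31) and, barely, in full length 2 (3.85). XBP1 is just above it in both wild types of the FOXA2 set and in CTD deletion 1.

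Most sites were called once. Among the 156 sites, 98 (62.8%) were called in 1 list, 58 (37.2%) in 2 or more, 19 (12.2%) in 5 or more and 4 (2.56%) in all 9, where all sites gave 61.5%, 38.5%, 11.6% and 2.08%. The 2 longest lists held 75 of the 98 single-list sites, 31 in full length 1 (median percentile 34.2) and 44 in CTD deletion 2 (median 33.2), while the 2 wild types of the FOXA2 set held none. Sites shared by lists were stronger in those same lists, with median percentiles of 62.6 and 72.1. The FOXA2 set alone called 109 sites (69.9%, against 67.1% of all sites), both sets called 36 (23.1%, against 19.3%) and the SOX2 set alone called 11 (7.05%, against 13.6%).

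Sites were called gained with a FOXA2 construct when both of its lists called them and neither wild type of that set did, and lost in the opposite case. Full-length FOXA2 gained 7 of the 156 sites (4.49%), below the 8% of all sites that met the rule, and lost none (0.131% of all sites). The CTD deletion gained 10 (6.41%, against 7.86% of all sites) and lost none (0.0482% of all sites). By gene, full length gained 3 at GREB1, 2 at XBP1 and 1 each at ESR1 and GATA3, and the CTD deletion 3 each at ESR1 and KLK3, 2 at GREB1 and 1 each at XBP1 and GATA3. At least 1 full-length gain was present at 4 of the 7 genes, where 73.4% of protein-coding gene windows had one, and at least 1 CTD-deletion gain at 5, where 69.5% had one. Losses were present at 1.91% of gene windows for full length and 0.666% for the CTD deletion, and at none of the 7. Neither construct gained a site at TFF1 or TMPRSS2. The construct lists were longer than the wild-type lists, and how far this bears on these counts was not tested. With the 19862 strongest peaks of each list, full length gained 1 of the 46 sites left (2.17%, against 3.75% of all sites). The CTD deletion then gained none (2.87% of all sites), so the shares of all sites fell too. Leaving out 1 list moved the full-length gains to 55 without full length 2 (35.7%, against 42.6% of all sites), 14 without full length 1 (11.2%, against 14.4%) or 11 without wild type 2 (7.05%, against 10.4%). It moved the CTD-deletion gains to 71 without CTD deletion 1 (50%, against 39.5%), 30 without CTD deletion 2 (26.5%, against 21.1%) or 16 without wild type 2 (10.3%, against 10.2%), so the CTD-deletion share went from below that of all sites to above it. Both comparisons used the same wild-type lists.

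Single lists were also set side by side. Full length 1 called 61 of the 156 sites that wild type 1 did not (39.1%, against 44.9% of all sites), and wild type 1 called 2 that it did not (1.28%, against 1.25%). Full length 2 called 16 that wild type 2 did not (10.3%, against 11.8%), and wild type 2 called 2 that it did not (1.28%, against 1.6%). Against wild type 1 alone, the CTD deletion gained 16 sites (10.3%, against 10.2%) and lost none (0.563% of all sites). Where the wild type of the SOX2 set also had to lack the site, 4 full-length gains (2.56%, against 6.36%) and 5 CTD-deletion gains (3.21%, against 5.74%) were left.

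For the SOX2 set the rule compared 1 list with 1, without a replicate check. SOX2 gained 17 sites (10.9%, against 11.2% of all sites) and lost 12 (7.69%, against 5.57%). The fusion gained 17 (10.9%, against 14.4%) and lost 9 (5.77%, against 5.63%). ESR1 held 8 of the SOX2 gains and 10 of the fusion gains, GREB1 5 and 4, and the other genes at most 1 each. At least 1 SOX2 gain was present at 6 of the 7 genes and at least 1 fusion gain at 5, where 75.2% and 76.7% of gene windows had one. Losses were present at 4 and 3 of the genes, and at 61% and 64.5% of gene windows. Many of these turn on the IDR threshold, since the wild type had an entry that failed it at 10 of the 17 SOX2 gains and 5 of the 17 fusion gains. Both constructs were compared with the same wild-type list.

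**Figure D3:**
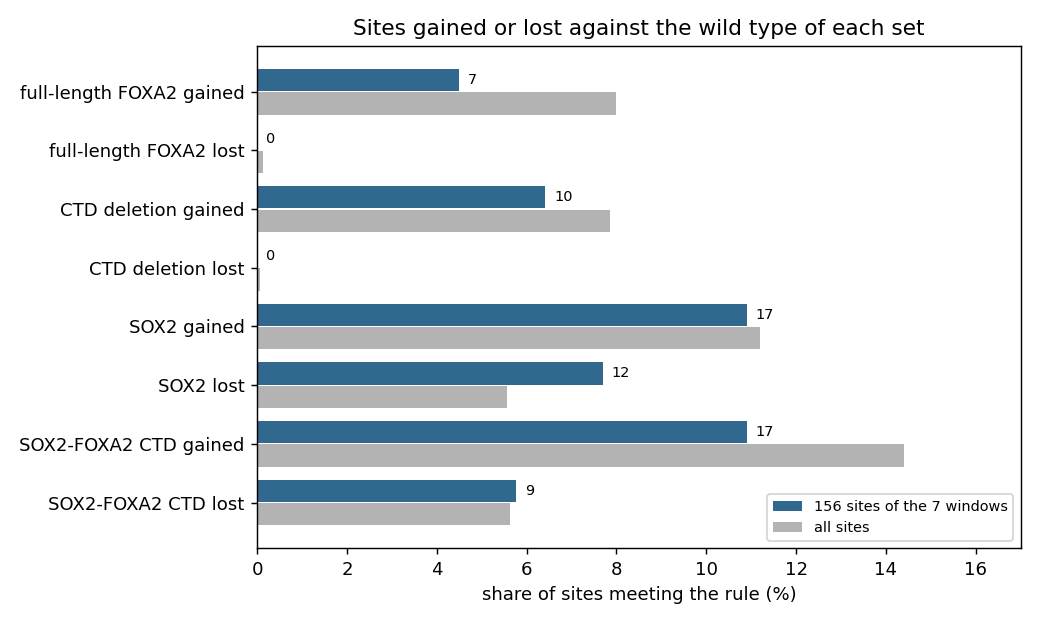
Share of sites (x axis, percent) that met each gain or loss rule (y axis), for the 156 sites of the 7 windows (blue, with the number of sites at the bar end) and for all 311447 sites (grey). The blue bar is shorter than the grey bar for each of the 4 gains, by the widest margin for full-length FOXA2 and the fusion. For the CTD deletion this turned without its first list (50% against 39.5%), its second (26.5% against 21.1%) or wild type 2 (10.3% against 10.2%). It also turned among lists named without a p threshold (10.4% against 10.3%). For SOX2 it turned at equal numbers of peaks (26.1% against 21.6%), with sites merged within its set (36.2% against 33.9%) and with 10 kb windows (12% against 11.2%). For full length it turned where peaks had to cover 50% of the site (5.13% against 4.54%) and among lists named with a p threshold (28.1% against 27.7%).

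ESR1, the receptor gene, had 66 of its 75 sites inside its body of 472948 bases. None was called in all 9 lists. The most widely called, in 8, was chr6:151627461-151628600, 28.6 kb upstream of the first start, with percentiles of 82.3 in wild type 2, 92.3 and 86.4 with full-length FOXA2, 87.4 and 88.1 with the CTD deletion, 2.31 in the wild type of the SOX2 set, 71.5 with SOX2 and 65.3 with the fusion. Wild type 1 alone did not call it. A site 398 kb into the gene, chr6:152054238-152055269, was called in 7 lists and was among the strongest fusion peaks (96.1), with 37.6 in wild type 1, 32.9 and 1.88 with full length, 75.1 in CTD deletion 2, 73.7 in the wild type of the SOX2 set and 82.7 with SOX2. At 108 kb, chr6:151763884-151764813 was called in 7 lists as well, at 75.8 in wild type 2, 90.1 and 56.4 with full length, 46.4 and 95.1 with the CTD deletion, 71.7 with SOX2 and 61.4 with the fusion. Each of these 3 sites was called in at least 1 list labelled wild type. Another, chr6:151914410-151914974 (258 kb), was called in 6 lists, at 46.4 in wild type 2, 61.3 in full length 2 and 77.8 and 91.2 with the CTD deletion, but among the weakest peaks of the SOX2 set (4.44 in the wild type and 1.96 with the fusion).

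Full-length FOXA2 gained 1 ESR1 site, chr6:151675611-151676456, 19.4 kb into the gene. It stood at 91.3 in full length 1 (rank 14011 of 161136) and at 12.4 in full length 2 (rank 50774 of 57946). CTD deletion 2 called it too (72.1), as did the wild type of the SOX2 set (38.5) and SOX2 (28.1), so in the SOX2 set the site was called in the wild type.

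The CTD deletion gained 3 ESR1 sites. At 5.51 kb, chr6:151661852-151662507 had percentiles of 83.3 and 57.5 and was also called in full length 1 (87.7), and nothing was listed there in the SOX2 set, whatever the IDR. Upstream by 8.26 kb, chr6:151648095-151648739 had 10.4 and 72.1, full length 1 32.9 and SOX2 1.21. Near the 3′ end, 439 kb in, chr6:152094958-152095599 had 60.2 and 88 and no call with full length, while the wild type of the SOX2 set called it at 57.6 and the fusion at 10.7. The peak beside an ESR1 start, chr6:151690532-151690809, lay 5 bp after the start at 151690527 and was seen in CTD deletion 2 alone (67.3, rank 48062 of 146854).

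SOX2-set gains with no wild-type entry at any IDR numbered 12 over the 7 genes. The fusion gained all 12 (7.69% of the 156 sites, against 10.4% of all sites) and SOX2 gained 7 (4.49%, against 7%). ESR1, which held 75 of the 156 sites, held 7 of the 12. The strongest was chr6:151663303-151664256, 7.11 kb into the gene, at 70.4 with SOX2 and 97.4 with the fusion (rank 1972 of 75544), and no list of the FOXA2 set called it. It is the next site after the one gained with the CTD deletion at 5.51 kb. Likewise uncalled in the FOXA2 set was chr6:152066050-152067093, 410 kb in, at 79 with SOX2 and 85.3 with the fusion. The fusion list called chr6:152086980-152087968 (431 kb) at 83.8 and chr6:151973011-151973612 (317 kb) at 61.2, both in no other list. It called chr6:151793126-151793875 (137 kb) at 57.8, where full length 1 (56.9) and CTD deletion 2 (57.5) had peaks as well. SOX2 and the fusion called chr6:151765474-151765960 (109 kb) at 41.8 and 46.4, with full length 2 at 12.4, and chr6:151677248-151677868 (20.9 kb) at 21.8 and 17.9.

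Where the fusion list called one of these sites and the SOX2 list did not, SOX2 still had an entry that failed the threshold, at IDR 0.245 (137 kb), 0.331 (317 kb) and 0.524 (431 kb). ESR1 sites of the wild type that SOX2 did not call included chr6:152089733-152090569 (433 kb, 61 in the wild type), chr6:151668481-151669228 (12.2 kb, 45.4), the site at 258 kb (4.44), chr6:152100000-152100760 (444 kb, 3.94) and chr6:151846938-151847406 (190 kb, 1.7). SOX2 had a failing entry at all 5.

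GREB1, an oestrogen-induced receptor cofactor, had 22 of its 39 sites in its body. The site open in all 9 lists, chr2:11465435-11467011, lay 16.7 kb upstream at the start of E2F6, a transcriptional repressor gene; its percentiles were 43.7 and 54.7 in the wild types, 98.5 and 65.6 with full length, 49.2 and 92.5 with the CTD deletion, and 89.2, 92.3 and 91.4 in the SOX2 set. Inside GREB1, chr2:11584040-11584881 (102 kb) was called in 7 lists, at 53.7 and 37.2 in the wild types, 91.5 and 88 with full length, 95.4 in CTD deletion 2, 67.9 with SOX2 and 88.9 with the fusion. On the −log10 p scale it had 7.85 and 9.61 in the wild types, 7.78 and 25.9 with full length and 10.5 in CTD deletion 2, so the first full-length value did not exceed the wild-type ones.

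Full-length FOXA2 gained 3 GREB1 sites. The nearest to the start, chr2:11477837-11478447, 4.75 kb upstream, stood at 58.7 in full length 1 and 5.94 in full length 2, and at 77.9 in CTD deletion 2. The other two lay in LPIN1, a neighbouring gene of lipid metabolism. At 199 kb, chr2:11681787-11682577 had 62.6 and 69.5 with full length, 20.9 and 76.3 with the CTD deletion and 18 with SOX2. At 206 kb, chr2:11688085-11688968 had 86 and 37.2, 75.3 and 73.9, and was called throughout the SOX2 set at 69.9 in the wild type, 49.6 with SOX2 and 60.5 with the fusion. Both LPIN1 sites met the gain rule with the CTD deletion too. No site gained with a FOXA2 construct lay in the GREB1 body. Further into the gene, chr2:11532153-11533109 (49.7 kb) was called in 7 lists, at 17 in wild type 2, 34.8 in full length 1, 74.1 and 63.3 with the CTD deletion, and 34.1, 25.9 and 58.1 in the wild type, SOX2 and fusion lists. Beyond its end, chr2:11675886-11676997 (194 kb) was called in 6, at 46.4 in wild type 2, 77.4 in full length 1, 70 and 85.7 with the CTD deletion, 32.8 in the wild type of the SOX2 set and 28.2 with the fusion.

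One GREB1 intragenic site missed the gain rule by a peak in 1 wild-type list. At 46.9 kb, chr2:11529430-11530054 had 62.8 and 90.4 with full length and 74.5 and 83.3 with the CTD deletion, against 8.57 in wild type 2 and no call in wild type 1, and no list of the SOX2 set called it. The −log10 p of that wild-type peak was 7.02, above those of full length 1 (4.33) and the CTD deletion (6.64 and 6.55) and below that of full length 2 (28.3), so its low percentile goes with the high floor of its list. It was picked for description after its values were seen. The peak nearest the start, chr2:11483384-11483583, 496 bp away, appeared in CTD deletion 2 alone at percentile 33.2. Fusion gains without a wild-type entry lay at 6.03 kb (chr2:11488603-11489236, 26.5), 14.8 kb (chr2:11497249-11498174, 78.9, with SOX2 at 49.7) and 125 kb (chr2:11607475-11608388, 86.9, with SOX2 at 34, full length 1 at 34.5 and CTD deletion 1 at 31.8). The 125 kb site had a −log10 p of 17.6 in the fusion list and 9.36 in the SOX2 list.

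TFF1, which encodes a secreted trefoil peptide, had 10 sites and none in its short body. No wild-type list of either set called any of them, nor did full length 2 or the fusion. The nearest to the start, chr21:42370747-42370946, lay 4.31 kb upstream and was called in CTD deletion 2 alone (57.5). Only 3 sites were in more than 1 list: chr21:42336373-42336642 (30 kb) at 56.9 in full length 1 and 33.2 in CTD deletion 2, chr21:42411214-42411837 (45 kb upstream) at 62.8 in full length 1 and 40.4 in CTD deletion 1, and chr21:42414862-42415733 (48.8 kb upstream) at 81.7 in CTD deletion 2 and 51 with SOX2. The last pair lies in UBASH3A, a T-cell signalling gene. No TFF1 site was called in both lists of a group of the FOXA2 set.

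XBP1 had the most constantly open start of the 7. Its promoter site, chr22:28799008-28801128, was the widest of all 156 at 2121 bp and was called in all 9 lists. The percentiles were 75.2 and 61.4 in the wild types (ranks 4927 of 19862 and 9690 of 25088), 96.3 and 75.9 with full length, 64.1 and 96.6 with the CTD deletion, and 97.4, 91.8 and 96 in the SOX2 set. In the wild type of that set it ranked 1257 of 48142. The −log10 p at this site was 10 and 12.4 in the wild types, 9.97 and 18.8 with full length and 5.65 and 11.4 with the CTD deletion, and both construct groups overlapped the wild types. The second site in all 9 lists, chr22:28772206-28774028, 27.5 kb downstream, is the start of the neighbouring gene CCDC117.

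Between these, in CCDC117, lay the 1 full-length gain of the 7 genes that was still called with equal numbers of peaks. The site chr22:28787793-28788557, 12.4 kb downstream of the XBP1 start, had percentiles of 88.5 and 93.9 with full length (ranks 18510 of 161136 and 3528 of 57946) and 8.56 and 92.2 with the CTD deletion. The authors' fold enrichment was 4.65 and 12.6, and 2.73 and 5.98. Neither wild type of the FOXA2 set called it and no SOX2-set list had an entry there. Its full-length call was also kept where peaks had to cover 50% of the site and where the wild type of the SOX2 set was a further control, and was lost at a −log10 p of at least 10. The second full-length gain at XBP1, chr22:28759815-28760314 (40.5 kb), had 62.6 and 37.2 and was called in no other list. At 49.5 kb, in HSCB, chr22:28750631-28751499 was gained with SOX2 (44.6) and the fusion (45), and CTD deletion 1 called it at 8.56.

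GATA3 had 10 sites and no peak in either wild type of the FOXA2 set. Its start site, chr10:8044777-8045998, carries the promoter with the forkhead letters printed above. It was called with full length at 56.9 and 78.5 (ranks 69496 of 161136 and 12463 of 57946) and with the CTD deletion at 64 and 81.3, and met both gain rules. The wild type of the SOX2 set called it too, at 33.8, and the fusion at 34.5, while SOX2 had an entry that failed at IDR 0.275. The start was therefore open in 1 of the 3 lists labelled wild type. The value of 56.9 in full length 1 is one that many tied peaks of that list share. The other site in more than 1 list, chr10:8006928-8007542, 38.1 kb upstream in TAF3, had 33.2 in CTD deletion 2 and 22.9 with the fusion. The remaining 8 were each called once, 4 in full length 1 and 4 in CTD deletion 2, at percentiles from 7.57 to 57.5.

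KLK3 had 10 sites and none in its body. The site in all 9 lists, chr19:50804159-50805364, lay at the window's upstream edge, 50.2 kb away over TMEM277P, at 93.6 and 54.7 in the wild types, 97.5 and 84.8 with full length, 97.3 and 95.7 with the CTD deletion, and 73.2, 86.3 and 91.7 in the SOX2 set. At 18.9 kb upstream, chr19:50835454-50836537 was called in 8 lists, all but wild type 2, at 33.3 in wild type 1, 82.4 and 44.5 with full length, 40.4 and 40 with the CTD deletion and 59, 66.2 and 77.6 in the SOX2 set.

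The CTD deletion gained 3 KLK3 sites, all downstream of the gene. The nearest, chr19:50864087-50864677 at 9.47 kb, had 57.7 and 92.9 (rank 10372 of 146854), was called in full length 2 (44.5) and was absent from the SOX2-set lists. At 35.9 kb, chr19:50890530-50891138 had 40.4 and 72.1, and at 41.7 kb, chr19:50896004-50897193 had 77.6 and 57.5. Both lie in the pseudogene KLKP1 and neither was called with full length, but the wild type of the SOX2 set called them at 26.5 and 43.1. SOX2 and the fusion called the 41.7 kb site at 35.4 and 34.3. At 15.8 kb, chr19:50870402-50871111 met the gain rule with SOX2 (10.2) and with the fusion (6.87), and CTD deletion 2 called it at 7.23. The wild type of the SOX2 set had an entry there that failed the IDR threshold. Full length called 2 and 3 KLK3 sites, the CTD deletion 6 and 9, and the wild types of that set 2 and 1. The SOX2-set lists called 5, 4 and 4. Per 100 kb of window, full length had 1.89 and 2.83, against medians of 5.91 and 2.44 over protein-coding genes. The CTD deletion had 5.67 and 8.5 (medians 3 and 5.47), and the wild types 1.89 and 0.945 (medians 0.918 and 0.891). The SOX2-set lists had 4.72, 3.78 and 3.78 (medians 2.35, 2.79 and 2.91). The difference between constructs was not tested.

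TMPRSS2, an androgen-induced protease gene, was the emptiest window. Of its 2 sites, chr21:41490862-41491061, in the gene body 17.2 kb from the start, was called in CTD deletion 2 alone, at 33.2 with a −log10 p of 3.08. The other, chr21:41420141-41420905, 87.6 kb away, lies at the start of MX1, an interferon-induced gene, and was called with SOX2 alone (31.3). The wild type had an entry there at IDR 0.0536, just past the threshold of 0.05. No list labelled wild type and no full-length list called a TMPRSS2 site.

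**Figure D4:**
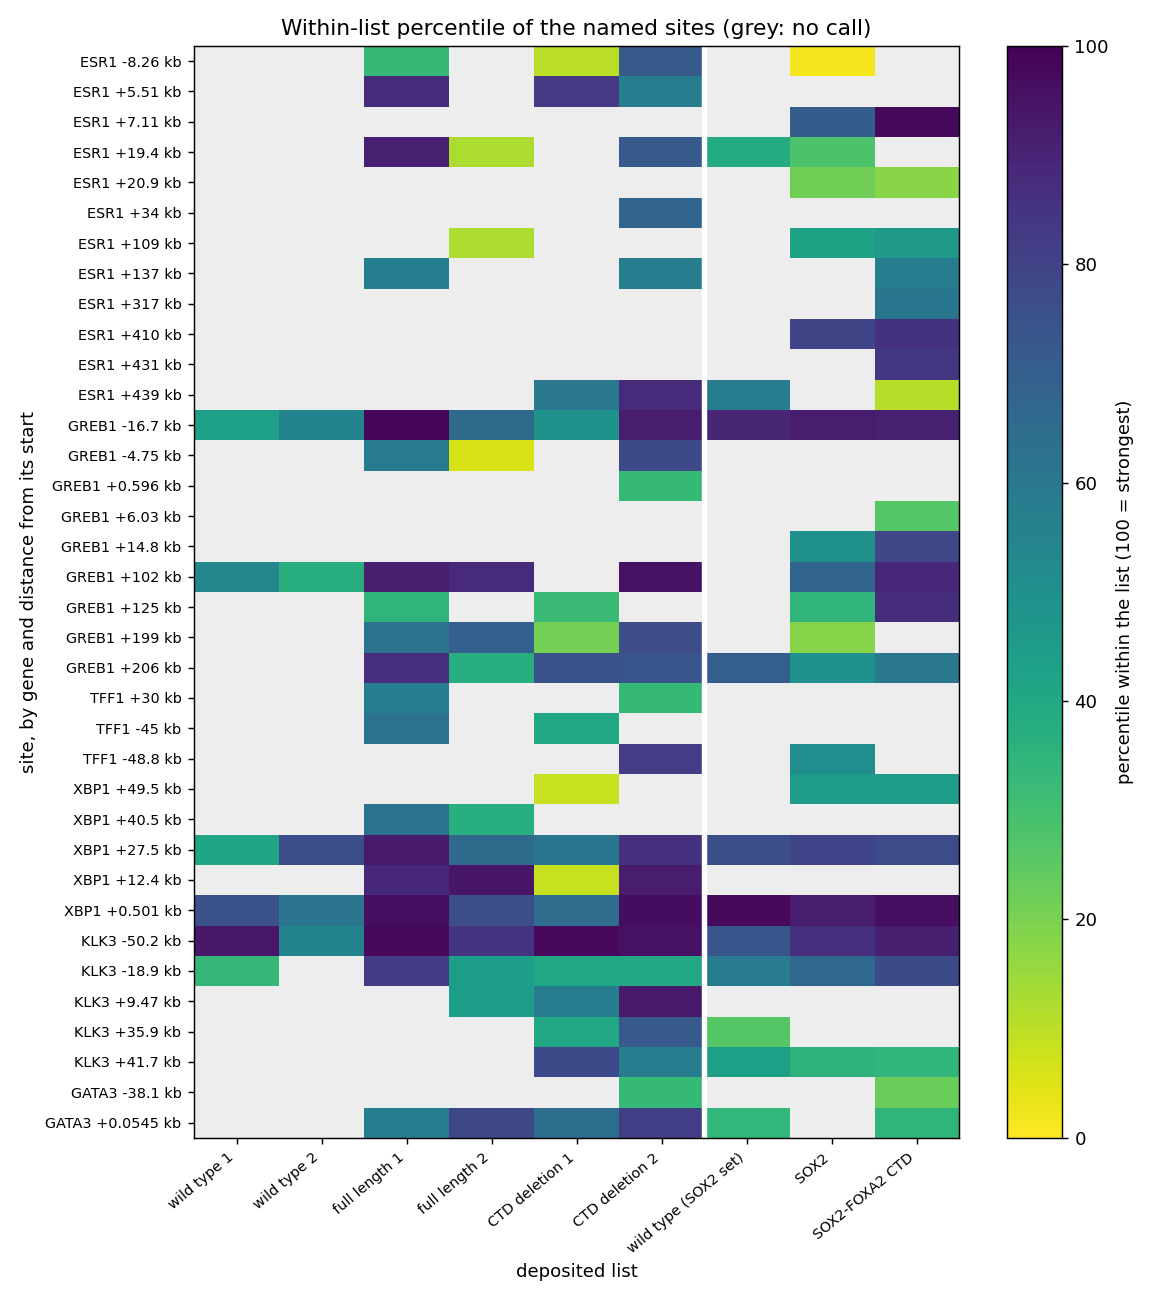
Percentile within each list (colour, 100 is the strongest, grey is no call) of 36 sites (rows, by gene and distance from its start in kb) in the 9 lists (columns), with the FOXA2 set left of the white line. The 4 rows filled across all columns are GREB1 at 16.7 kb upstream, XBP1 at 0.501 and 27.5 kb and KLK3 at 50.2 kb upstream (2.56% of the 156 sites, against 2.08% of all sites). The 4 rows filled in all 4 FOXA2 construct columns but in neither wild type left of the line are GREB1 at 199 and 206 kb, XBP1 at 12.4 kb and GATA3 at 0.0545 kb. They are 2.56% of the 156 sites, below the 3.83% of all sites with that pattern.

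The median percentile of the full-length gains at these genes was below that of all full-length gains. With the fusion it was above, and with the CTD deletion and SOX2 it lay closer to that of all gains. The sites were few and spread from 56.9 to 91.3 and 5.94 to 93.9 with full length. They spread from 8.56 to 83.3 and 57.5 to 92.9 with the CTD deletion, 1.21 to 79 with SOX2 and 6.87 to 97.4 with the fusion. These differences were not tested. For full length the 7 had median percentiles of 62.6 and 37.2 in the 2 lists, against 78.2 and 50.9 for all 24929 gains. With the CTD deletion the 10 had 58.9 and 75.1, against 57.7 and 72.1 for all 24472. The 17 SOX2 gains had a median of 41.8 against 37.4, and the 17 fusion gains 57.8 against 43. Of the 7 full-length gains, 3 were called in the wild type of the SOX2 set, as were 20.6% of all full-length gains, and of the 10 CTD-deletion gains 5 were, as were 26.9% of all.

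For context, 18 further genes controlled by hormone receptors or FOXA factors were counted in the same way, among them PGR, KRT8, KRT18, KLK2, TFF3 and CCND1. KLK2 and TFF3 share parts of their windows with KLK3 and TFF1. Sites were summed gene by gene, so a site in the windows of more than 1 of the 18 genes was counted for each. Summed so, the 308 sites held 24 full-length gains (7.79%, against 8% of all sites) and 1 loss (0.325%, against 0.131%). They held 24 CTD-deletion gains (7.79%, against 7.86%) and no loss. SOX2 had 27 gains (8.77%, against 11.2%) and 29 losses (9.42%, against 5.57%). The fusion had 29 gains (9.42%, against 14.4%) and 25 losses (8.12%, against 5.63%). Starts were called in all 9 lists at 2 of the 18 genes (KRT8 and KRT18) and in none at 7. As a check of the labelled cell type, the 2 blood and 3 liver marker starts (PTPRC, CD3E, ALB, APOA1, TTR) were called in none of the 9 lists, and 6 of 7 mesenchymal marker starts in at least 1 (COL1A1 in 8, RUNX2 and FN1 in 7, VIM in 6, TWIST1 in none). Among 8 luminal markers, KRT8, KRT18 and FOXA1 were called in all 9 lists, GATA3 in 6, ESR1 and EPCAM in 1, and CDH1 and KRT19 in none.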

How the data were processed

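Per the submitters' processing notes, the authors used FastQC 0.10.1, Trim Galore, Bowtie2 2.4.4, SAMtools 0.1.18, MACS2 and deepTools 2.4.1 with the hg38 build. The role and settings of each are not given in the sources used here. The 6 lists of the FOXA2 set are deposited MACS2 peaks, with −log10 p and q values, fold enrichment (a ratio over background) and a score per peak made by the authors, called per sample. The 3 lists of the SOX2 set are deposited IDR tables with, per entry, the authors' score, a signal value, −log10 p and q values and the −log10 of the IDR.

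Peaks on chromosomes 1 to 22 and X were merged into sites (Python 3.11.15, pandas 2.3.3, checked against bedtools 2.31.1 and tested on simulated data), called by 1 base of overlap, with IDR at most 0.05. Gene extents were those of RefSeq GRCh38.p14, and the strands of GREB1, TFF1 and TMPRSS2 from general knowledge. Sites were named by a rule: within 1 kb of a member start, gained or lost with a FOXA2 construct, gained in the SOX2 set with no wild-type entry, called in all 9 lists, or among the 3 of each gene with the best mean percentile in at least 2 lists; a few other shared sites are given too. Alternatives covered list length, thresholds, overlap, flanks, controls and left-out lists. The members and lists were chosen with earlier results of these data known. Some items of the context and marker lists are not reported here.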

Additional observations from a re-analysis of the deposited data

How the results depend on the processing

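Main counts were 7 gains and 0 losses with full-length FOXA2, 10 and 0 with the CTD deletion, 17 and 12 with SOX2, and 17 and 9 with the fusion. With equal numbers of peaks per list, full length gained 1 (2.17%, against 3.75% of all sites). The CTD deletion gained 0 (2.87% of all sites) and lost 1 (2.17%, against 1.72%). The fusion gained 11 (23.9%, against 24.4%) and lost 15 (32.6%, against 24.4%). Under 1 shared floor of −log10 p (5.43) full length gained 3 (4.62%, against 8.87%) and the CTD deletion 1 (1.54%, against 4.5%). At 10 or more both gained 0 (1.77% and 0.643% of all sites). With sites merged from the lists of each set alone, full length gained 7 (4.7%, against 9.06%) and the CTD deletion 10 (6.71%, against 8.72%). SOX2 gained 17 (36.2%, against 33.9%) and lost 12 (25.5%, against 17%). The fusion gained 17 (36.2%, against 43.7%) and lost 9 (19.1%, against 17.1%). With windows of 10 kb full length gained 4 (4%, against 8%) and the CTD deletion 6 (6%, against 7.86%). SOX2 gained 12 (12%, against 11.2%) and the fusion 14 (14%, against 14.4%). With 100 kb full length gained 14 (5.65%, against 8%) and the CTD deletion 17 (6.85%, against 7.86%). SOX2 then gained 26 (10.5%, against 11.2%) and lost 19 (7.66%, against 5.57%). The fusion gained 28 (11.3%, against 14.4%) and lost 17 (6.85%, against 5.63%). Counting all entries whatever their IDR gave 32 SOX2 losses (15.8%, against 8.72%) and 32 fusion gains (15.8%, against 24.3%). It also gave 26 fusion losses (12.8%, against 7.86%). An IDR of 0.01 gave 7 SOX2 losses (4.58%, against 4.01%). Requiring no entry at any IDR gave 7 SOX2 gains (4.49%, against 7%), 3 SOX2 losses (1.92%, against 1.9%) and 3 fusion losses (1.92%, against 1.4%). Leaving out 1 list gave 9 to 55 full-length gains (5.77% to 35.7%, against 8.96% to 42.6% of all sites) and 13 to 71 CTD-deletion gains (8.33% to 50%, against 9.17% to 39.5%). It gave 0 to 2 full-length losses, with 2 only without wild type 2 (1.28%, against 1.02%). It gave 0 to 1 CTD-deletion losses, with 1 only without CTD deletion 2 (0.885%, against 0.291%). The CTD-deletion share was below that of all sites without wild type 1 and above it without wild type 2 or either CTD-deletion list. Chosen after seeing the data, peaks covering 50% of a site gave 4 CTD-deletion gains (2.56%, against 4.82%). The wild type of the SOX2 set as a further control gave 4 full-length gains (2.56%, against 6.36%) and 5 CTD-deletion gains (3.21%, against 5.74%). Lists whose peak names carry a p threshold gave 16 full-length gains (28.1%, against 27.7%) and 2 losses (3.51%, against 3.76%). Those without gave 61 gains (39.6%, against 45.8%) and 2 losses (1.3%, against 1.28%), with 16 CTD-deletion gains (10.4%, against 10.3%). Pairing the lists by replicate number as a block gave 7, 0, 10 and 0, identical by construction, since the rule already requires both pairs. The cause of these shifts was not tested, beyond the fewer peaks, wider windows or fewer lists that each setting itself brings.

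With 2 lists a side and 1 list a side in the SOX2 set no count has a test, and the lists give no read depth, so a site without a call is one not detected at the list's threshold.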

Other observations

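Entries that failed the IDR threshold of 0.05 show where the SOX2 set had poorly reproduced signal at these genes. In the 7 windows there were 44 such entries in the wild type, 31 with SOX2 and 44 with the fusion. The lists held 110813, 147763 and 177650 entries in all. Outside all 156 sites lay 24, 14 and 22 of the failing entries, or 3.83, 1.7 and 2.15 per 10000 failing entries of the list. TMPRSS2, with 1 passing peak in the whole set, had 4 failing entries in the wild type, 3 with SOX2 and 2 with the fusion. GATA3 had 4 in each list. TFF1 had 2, 1 and 3. ESR1 had 14, 12 and 16, and GREB1 14, 8 and 12. In the comparisons above these entries served only to mark whether an uncalled list had an entry, and in the counts over all entries whatever their IDR.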
